A study of Mus musculus with 2 samples.

Results

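The cells described here are T cells that hold RNA of at least 3 of the 8 genes Nt5e, Izumo1r, Slamf6, Tnfsf8, Tbc1d4, Cd200, Nrn1 and Gpm6b and no detected RNA of Foxp3, Cxcr5, Il1rl1, Ifng or Ikzf2. There were 386 of them, called members from here on, among 22960 barcodes of the expression library. They were chosen by the measured counts of these 13 genes, of the T cell receptor genes and of the hashtags, in steps: 21236 barcodes had at least 500 genes and under 10% mitochondrial UMIs (unique molecular identifiers, each counting 1 RNA molecule), 14382 of these carried 1 hashtag, and 13771 had at least 2 UMIs of the T cell receptor complex genes Cd3e, Cd3d, Cd3g and Trac. Of these T cells, 6845 carried hashtag 1, 2, 3 or 4, to which the members are limited, and 966 had at least 3 of the markers. The 5 excluded genes then removed 580 cells. The members made up 5.64% of the T cells of those 4 hashtags (exact 95% binomial interval 5.10% to 6.21%, counting error only).

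The study sorted CD4 T cells from visceral adipose tissue (VAT) and from spleen. The mice were of the strain C57BL/6 Foxp3.Cre-YFP, in which a Cre recombinase fused to a yellow fluorescent protein is made under the Foxp3 gene's control, that is in regulatory T cells (Tregs). They were Treg-bmal1WT or Treg-bmal1KO, the second lacking the clock gene Bmal1 (listed as Arntl) in Tregs, and were kept under reversed light. Cells were taken at zeitgeber times ZT0 and ZT12, and 34000 VAT and 32000 splenic cells were sorted, labelled with hashtag antibodies and pooled into 1 library, per the labels, which do not say how many animals gave them. The 8 combinations of tissue, genotype and time stand against 6 hashtags with counts, whose names do not say which combination they mark, so hashtags are given by number, are not replicates of a group, and no comparison of tissue, genotype or time is made. The deletion is driven by Foxp3, of which members hold no UMI by the rule, although a Treg whose Foxp3 went undetected can be among them.

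CD73, the product of Nt5e, is a surface enzyme that turns AMP into adenosine, which dampens T cells through adenosine receptors. Folate receptor 4 (Izumo1r) is found with CD73 on Tregs, on anergic CD4 T cells and on some memory CD4 T cells, and Slamf6 encodes Ly108, a homotypic receptor of the SLAM family carried by long-lived and follicular helper T cells. Memory CD4 T cells carry high CD44, and some but not all of them have lost much of the lymph node homing programme of naive cells. In adipose tissue memory CD4 T cells lie next to a large population of Tregs.

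The hashtag oligonucleotides are shown because they alone tie each cell to its source. Each is a designed 15-base tag on an antibody, written as deposited.
Hashtag 1: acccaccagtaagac
Hashtag 2: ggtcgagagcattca
Hashtag 3: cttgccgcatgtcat
Hashtag 4: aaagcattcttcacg
Hashtag 5: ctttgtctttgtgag
Hashtag 6: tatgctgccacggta
A cell was assigned where 1 of these tags made up at least 80% of its tag counts, with at least 10 counts. Another 6854 barcodes that passed the gene and mitochondrial limits had no single hashtag. Cells of 2 hashtags are removed in this way, whereas a pair of cells with the same hashtag is not seen.

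The members had a median of 2836.5 UMIs and 1194 genes per cell, and a median of 2.64% mitochondrial UMIs. The comparator used below is the 1859 T cells of the same 4 hashtags that also lack the 5 excluded genes but hold fewer than 3 markers, with medians of 2578 UMIs, 1147 genes and 2.32% mitochondrial UMIs. The members' 1202862 UMIs therefore came from slightly deeper cells. All levels are CPM, a gene's UMIs scaled to a common total after summing over a class of cells, and comparisons of a gene are made between classes, not between genes.

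Hashtag 1 held 148 members, 5.73% of its T cells (4.86% to 6.69%). Hashtag 2 held 54, or 3.77% (2.85% to 4.90%). Hashtag 3 held 123, or 7.47% (6.24% to 8.85%), and hashtag 4 held 61, or 5.16% (3.97% to 6.58%). The intervals of hashtags 2 and 3 did not overlap, while those of hashtags 1 and 4 did. The same rule picked 382 cells in hashtag 5 (10.7%, 9.67% to 11.7%) and 349 in hashtag 6 (10.4%, 9.43% to 11.5%), a higher share than in any of the first 4 hashtags.

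Most cells that met the marker rule were removed by the excluded genes. Ikzf2, which encodes the transcription factor Helios, had a UMI in 51.5% of these T cells and in 47.0% of the cells with 3 or more markers. It alone removed 243 of the 966. Ifng alone removed 65, Il1rl1, the gene of the IL-33 receptor, 29, Cxcr5 18 and Foxp3 4. In a cluster led by naive T cell genes (median 3668 UMIs) 12.8% of cells also held an Ikzf2 UMI, and the part of free RNA in the removals was not tested. Among T cells without any of the 5 genes, the share that met the marker rule was 17.8%, 13.8%, 18.5% and 17.2% in hashtags 1 to 4, and 18.2% and 15.8% in hashtags 5 and 6. Pooled, these were 17.2% of 2245 cells (15.7% to 18.8%) against 17.0% of 4309 cells (15.9% to 18.1%). With each cell thinned to 2000 UMIs, which left out 1431 shallower T cells in hashtags 1 to 4 and 630 in hashtags 5 and 6, the share of all T cells was 4.03% (3.52% to 4.58%) against 6.75% (6.14% to 7.40%).

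**Figure D1:**
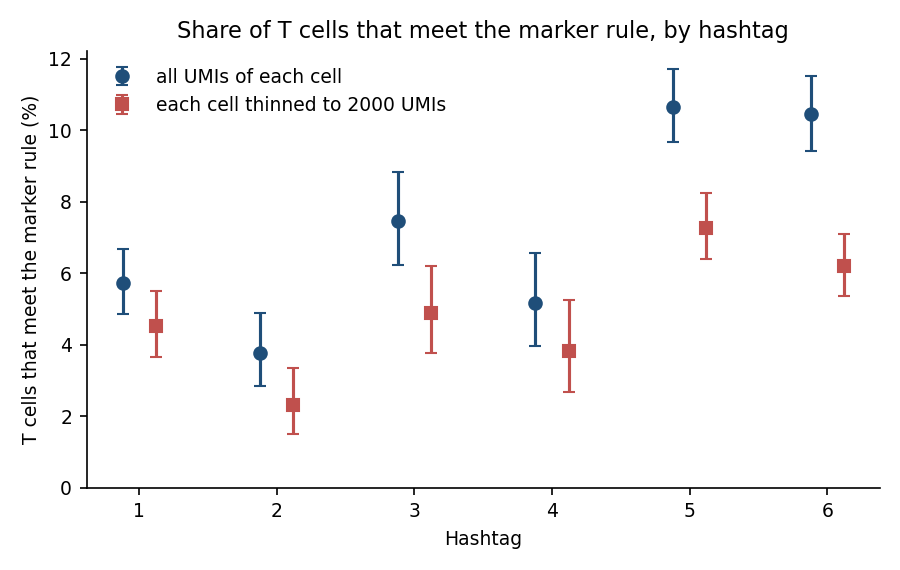
Percent of T cells that meet the marker rule in each of the 6 hashtags, with exact 95% binomial intervals as bars. Circles use all UMIs and squares use cells thinned to 2000 UMIs. Hashtags 5 and 6, at 10.7% and 10.4%, lie above hashtags 1 to 4 (3.77% to 7.47%), and remain above their pooled share after thinning.

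The 8 markers chose the members, so their levels describe the rule and are not a result. Slamf6 (chromosome 1, 171917458 to 171948958 in the RefSeq annotation of GRCm38.p6) was detected in 333 of the 386 members (86.3%), at 570, 732, 674 and 725 CPM in hashtags 1 to 4, against 201, 200, 267 and 286 CPM in the comparators. Izumo1r (chromosome 9, 14885814 to 14903951) was detected in 219 members (56.7%), at 269, 285, 272 and 268 CPM. Nt5e (chromosome 9, 88327609 to 88372089) was detected in only 84 members (21.8%), at 55.5, 97.2, 89.7 and 73.6 CPM. The gene that heads the working name of these cells was thus undetected in most of them, and Slamf6 with Izumo1r was the most frequent pair, found in 186 cells (48.2%).

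Tnfsf8, the gene of CD30 ligand, was detected in 52.3% of members and Tbc1d4, a GTPase-activating protein of glucose transporter traffic, in 49.7%. Gpm6b, a membrane glycoprotein gene best known from the nervous system, was found in 40.4%. Cd200, whose product binds an inhibitory receptor on myeloid cells, was found in 24.4%, and Nrn1, the gene of neuritin, in 16.3%. As a measure of background, in the naive-gene cluster Gpm6b was detected in 1.52% of cells and Nrn1 in 0.915%, whereas Slamf6 was detected in 58.2% there. Slamf6 was thus common in the naive-gene cells as well, and Tnfsf8 and Izumo1r were not particular to the members, while Gpm6b and Nrn1 were rare there. In the comparators the detection of the 8 genes ran from 35.2% for Slamf6 down to 1.18% for Nrn1.

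Members were mostly at the edge of the rule: 251 held 3 markers, 93 held 4, 36 held 5, 4 held 6 and 2 held 7. A further 421 cells just outside it held 2. The most frequent combinations were Izumo1r and Slamf6 with either Tbc1d4 or Tnfsf8, at 31 cells each (8.03% of members), so that no combination held a large share of the class. The cells with 3 markers had a median of 2824 UMIs and those with 2 had 2842, so that depth was alike on both sides of the threshold.

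The label of these cells as memory CD4 T cells was set beside genes outside the rule. The reference was the cluster led by the naive genes Satb1, Dapl1, Igfbp4 and Ccr7 (308 cells without members). The members outside that cluster (366 cells) had higher levels of genes that mark antigen-experienced cells. Cd44 was at 110, 106, 97.4 and 174 CPM in members of hashtags 1 to 4, and at 11.9, 38.0, 27.0 and 36.2 CPM in the naive-gene cells. The ranges did not overlap for Cd44, nor for the integrin gene Itgb1, at 643 to 834 CPM in members and 59.3 to 93.6 CPM in the naive-gene cells. Cxcr3, a chemokine receptor of effector and memory cells, was at 242 CPM (95% Poisson interval 214 to 272) against 27.2 CPM (18.5 to 38.6). Il2rb, a chain of the IL-2 and IL-15 receptors, was at 260 CPM against 44.7 CPM.

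Naive genes were lower in the same comparison. Igfbp4 was at 29.5 CPM against 441 CPM and Satb1 at 30.4 CPM against 404 CPM. Ccr7, a receptor that guides cells into lymph nodes, was lower too, at 92.1 CPM (75.2 to 112) against 391 CPM (356 to 429). S1pr1, the receptor by which T cells leave tissues toward blood and lymph, was at 347 CPM (313 to 383) in members and 319 CPM (287 to 354) in the naive-gene cells, whose intervals overlap. That cluster was picked for the highest summed level of 8 naive genes, and the 20 members in it were left out. The lower level of the naive genes as a set was thus largely fixed in advance. As the cluster was also found by its expression, these contrasts describe it and carry no test.

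Cd4 was detected in 47.9% of members, at 222, 298, 202 and 210 CPM in hashtags 1 to 4, and no member held a Cd8a UMI, whereas Cd8b1 had 9 UMIs in members (7.48 CPM, against 7.96 CPM in comparators). The B cell genes Cd79a and Ms4a1 were at 0 in members, while Cd79b had 4 UMIs, Cd74, which other cells also make, 73, and Ighm 379. Zbtb16, the regulator of innate-like T cells, was at 0, and the innate-like list summed to 19.4 to 57.7 CPM in members of the 4 hashtags and 117 to 334 CPM in comparators. The Cd4 and Cd8a values thus follow the CD4 part of the label. Its memory part rests on the contrasts with the naive-gene cluster, which carry no test. The Nt5e in the label applies to the 84 members named above. The comparators carried Cd44 at a like level, 109 CPM against 112 CPM in members, so Cd44 did not set the members apart from them.

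Outside the rule genes, 5474 genes had a mean level of at least 20 CPM in members and comparators and were compared within each hashtag. A gene is called past the fold where the median over the 4 hashtags of its log2 ratio, members over comparators, reached 1.5-fold, the sign was the same in all 4 hashtags and the 95% counting interval of the pooled ratio excluded 0. There were 50 such genes higher in members (0.913%) and 165 lower (3.01%), and the median over all 5474 genes was -0.03. These are sizes in 1 pooled library with no replicates, so no p-value belongs to them. With comparators matched to members on UMI total, 68 genes were higher and 137 lower.

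Pou2f2, the gene of the octamer-binding factor OCT2, led the higher genes. Its level in hashtags 1 to 4 was 327, 266, 197 and 184 CPM in members and 130, 105, 83.1 and 101 CPM in comparators. The lowest member value lay above the highest comparator value, the median log2 ratio was 1.28 (range 0.86 to 1.33), and 45.3% of members held a Pou2f2 UMI against 20.2% of comparators. It remained past the fold in each of 18 alternative settings. Tiam1, an activator of the GTPase Rac, followed at 64.0 CPM against 28.9 CPM (median log2 ratio 1.25, range 0.81 to 1.51). Ms4a4c, a tetraspan membrane protein gene, was at 57.4 CPM against 27.2 CPM (1.21, range 0.59 to 1.34).

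Adk, which encodes adenosine kinase, the enzyme that clears adenosine inside cells by turning it into AMP, was at 109, 84.2, 84.6 and 78.8 CPM in members and at 44.9, 49.3, 41.5 and 35.3 CPM in comparators. All 4 member values lay above all 4 comparator values, and the median log2 ratio was 1.08 (range 0.76 to 1.27; pooled counting interval 0.77 to 1.45). It was the 1 gene past the fold of 5 measured in a list of 10 genes of adenosine handling, whose median was 0.21. Entpd1, the gene of CD39 that makes the substrate of CD73, was at 19.95 CPM against 17.5 CPM, with log2 ratios from -1.51 to 0.78 over the hashtags. The adenosine receptor gene Adora2a was at 19.95 CPM against 26.0 CPM, and Adora2b was at 0 in members.

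Tox, a nuclear factor gene that is high in chronically stimulated and follicular T cells, was at 94.0, 64.8, 64.1 and 94.6 CPM in members and 51.4, 63.8, 32.7 and 43.8 CPM in comparators. The classes were level in hashtag 2 and apart in the other 3, with a median log2 ratio of 0.91 (range 0.02 to 1.09). Ctla4, an inhibitory receptor that opposes CD28, was at 142 CPM against 88.3 CPM (0.64, range 0.11 to 0.87). It stayed past the fold in 11 of 18 alternative settings, and Tox in 15. Tox and Ctla4 were the 2 called of the 4 inhibitory receptor and exhaustion genes measured, all 4 of which had a median above 0, with a list median of 0.68. The other 2 were Btla at 39.1 CPM against 24.3 CPM and Pdcd1, the gene of PD-1, at 30.8 CPM against 20.2 CPM; Havcr2 was at 0 in members.

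The other genes among the 15 highest ran from a median log2 ratio of 0.85 to 1.18. They included Prkca, a protein kinase C gene, at 87.3 CPM against 49.7 CPM, which also stayed past the fold in all 18 settings, and Casp4, an inflammatory caspase gene, at 71.5 CPM against 37.9 CPM. Plscr1, a phospholipid scramblase gene induced by interferon, was at 38.2 CPM against 18.1 CPM. Slc22a15, Stx6, Pgap1, Vps35l, Coa5, Prelid2 and Rfk made up the rest, at 29.9 to 57.4 CPM in members. Each of these 15 had at most 306 UMIs in members, and 20 of the 50 higher genes remain where a mean of 50 CPM is asked for.

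**Figure D2:**
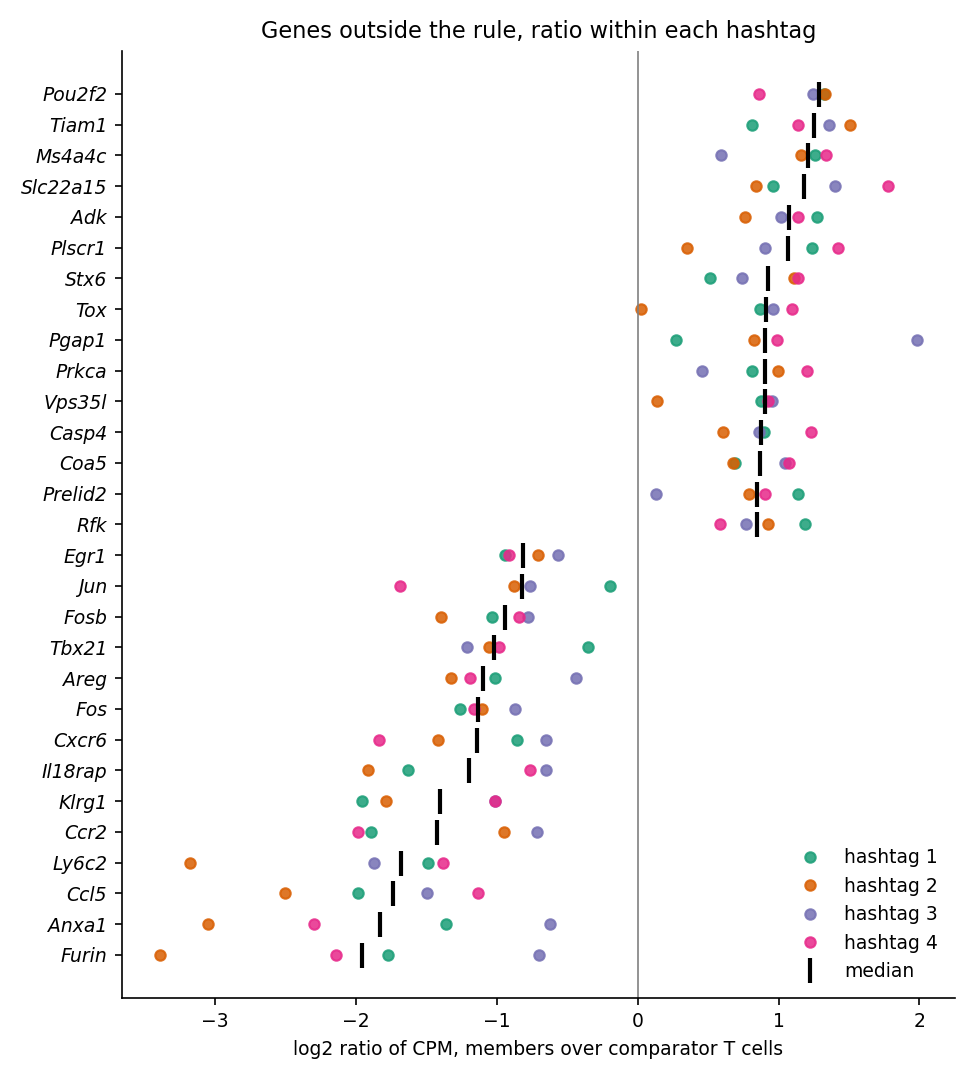
log2 ratio of CPM, members over comparators, for the 15 highest genes outside the rule and for 14 lower genes described in the text. Dots are the 4 hashtags and black bars their median; the grey line marks equal levels. Pou2f2 and Adk lie above 0.7 in each hashtag, and Ccl5 and Ly6c2 below -1.1.

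Genes of the type 1 helper programme were lower in members: 7 of the 10 measured genes of that list were past the fold, none was higher, and the list's median was -0.98. Ccl5, a chemokine stored by effector and memory T cells, was at 1025, 791, 1315 and 1356 CPM in members and at 4054, 4491, 3701 and 2979 CPM in comparators (median log2 ratio -1.74, range -2.50 to -1.14). The groups did not overlap, although 50.8% of members still held a Ccl5 UMI against 63.7% of comparators. Ly6c2, a surface protein gene of type 1 effector cells, was at 72.6, 32.4, 76.9 and 63.1 CPM against 205, 301, 283 and 166 CPM (-1.68). Tbx21, the master regulator T-bet, was at 34.9 CPM against 61.9 CPM (-1.02), and Il18rap, a chain of the IL-18 receptor, at 27.4 CPM against 60.6 CPM (-1.20). Cells with an Ifng UMI had been removed from both classes. Cxcr3, of the same list, was at 226 CPM in members and 228 CPM in comparators.

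Of 13 genes measured for homing and adhesion, 4 were lower and past the fold, none was higher, and the list's median was -0.07. Ccr2, a receptor that brings cells into inflamed tissue, was at 40.6, 77.8, 82.0 and 36.8 CPM in members and at 152, 151, 135 and 149 CPM in comparators, with no overlap (median log2 ratio -1.42). Cxcr6 was at 98.1 CPM against 193 CPM (-1.14), and Cd69, a marker of activation and tissue residence, at 137 CPM against 217 CPM (-0.60). Itga4 at 635 CPM against 450 CPM, Itgb1 at 713 CPM against 518 CPM and S1pr1 at 343 CPM against 238 CPM were higher by less than that fold, with medians of 0.55, 0.51 and 0.46. Cxcr6 is in both this list and the type 1 list.

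Of 11 measured genes induced by T cell receptor signals, 4 were lower and none higher (list median -0.22). Egr1, an immediate early transcription factor, was at 51.3, 64.8, 59.0 and 47.3 CPM in members and 99.0, 106, 87.5 and 90.1 CPM in comparators. Nr4a3, an orphan nuclear receptor that tracks antigen signals, was at 24.1 CPM against 50.1 CPM (-0.87). Nr4a2 was at 15.8 CPM against 40.8 CPM, with no UMI among the members of hashtag 2, and Cd69 was the fourth. All 11 measured genes of the AP-1 and dissociation stress list had medians below 0 (list median -0.35), of which 3 were past the fold. Fos was at 139, 194, 144 and 142 CPM against 334, 420, 262 and 319 CPM (-1.14), Fosb at 75.7 CPM against 152 CPM (-0.94) and Jun at 119 CPM against 181 CPM (-0.82). Early genes of this kind also rise while tissue is taken apart, and the part of handling in these values was not tested.

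Of 6 measured genes known from adipose Tregs, 4 were lower and past the fold, with a list median of -1.10. With comparators matched on UMI total 1 of the 6 was past the fold (list median -0.70). Within clusters 1 and 2 the median log2 ratio of Areg was 0.070 and that of Plin2 0.24, the opposite direction. Areg, the growth factor amphiregulin, was at 39.1 CPM against 78.2 CPM, Klrg1, a receptor of terminally differentiated cells, at 19.1 CPM against 56.1 CPM, and Fgl2, a secreted inhibitor, at 24.9 CPM against 58.6 CPM. Plin2, a lipid droplet gene, was the fourth. The remaining 2, Gata3 at 175 CPM against 148 CPM and Batf at 69.8 CPM against 58.6 CPM, were higher by less than the fold. Of the general Treg list, Ctla4 alone of 5 measured genes was past the fold, and Il2ra was at 19.95 CPM against 31.4 CPM. Tmem176a and Tmem176b, the 2 measured genes of the type 17 helper list, were lower (-1.99 and -1.77), and Il17a, Il22 and Il23r were at 0 in members.

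Among the other lowest genes, Furin, a proprotein convertase, was at 23.3 CPM against 76.3 CPM (-1.96) and Anxa1 at 29.1 CPM against 80.2 CPM (-1.83). Gzma, the granzyme A gene, was at 11.6 CPM against 73.0 CPM, Mmp9 at 8.31 CPM against 43.5 CPM and Itga1 at 29.9 CPM against 52.4 CPM, each with no UMI in members of hashtag 2. Gzma was near level in hashtag 1 (log2 ratio -0.08), and Itga1 in hashtags 1 and 3 (-0.13 and -0.29). Of the members' UMIs, 1 cell held 9 of 14 for Gzma and 1 cell held 17 of 36 for Itga1. Slpi rested on 1 cell, since a single comparator held 197 of the 263 comparator UMIs (74.9%). The hemoglobin genes Hbb-bs, Hba-a2 and Hbb-bt met the rule downward in the same way: 1 comparator cell held 71.3%, 69.3% and 84.0% of their comparator UMIs. Hbb-bs was detected in 21.2% of members and 21.4% of comparators, a like share in both.

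The lists for which the working name gives most reason to look showed no call, or 1. None of 7 measured genes of the anergy programme was past the fold (median 0.31), with Cd5 at 369 CPM against 301 CPM and Dgkz at 119 CPM against 93.2 CPM. Egr2 and Egr3, regulators of anergy, were under the level limit with 5 and 10 UMIs in members. Egr2 was at 4.16 CPM against 2.91 CPM. Egr3 was at 8.31 CPM against 16.7 CPM and lower in every hashtag (pooled counting interval -2.12 to -0.06). With the level limit at 10 CPM, 2 of 10 anergy genes measured were lower and 0 higher, with no share over all genes to set beside this. Of 7 measured genes of the follicular helper programme 1 was higher, the IL-6 receptor gene Il6ra, at 105, 136, 118 and 173 CPM against 77.9, 81.7, 73.6 and 92.6 CPM (median log2 ratio 0.70). Bcl6, the regulator of that programme, and Il21 were under the level limit. Bcl6 had 7 UMIs in members and 18 in comparators (5.82 CPM against 3.49 CPM, pooled counting interval -0.77 to 2.06). Il21 had 5 and 4 UMIs (4.16 CPM against 0.776 CPM, 0.20 to 4.75). None of 10 genes of memory and survival was past the fold, with a median of 0.25; Il7r, the IL-7 receptor gene, was at 773, 758, 802 and 820 CPM against 599, 386, 616 and 602 CPM (median 0.41), and its groups did not overlap although it missed the fold.

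Of the 8 naive genes, Satb1 alone was past the fold (60.7 CPM against 106 CPM, median log2 ratio -1.004), and the list's median was 0.06. The naive-gene cluster held 242 of the 1859 comparators and 20 of the 386 members. With its cells left out of both classes, Satb1 was at 30.4 CPM (21.1 to 42.5) in members and 37.4 CPM (31.8 to 43.6) in comparators, with overlapping intervals. Ccr7 was then at 92.1 CPM in members against 47.9 CPM (41.6 to 54.9), and Dapl1 at 121 CPM (101 to 143) against 50.5 CPM (44.0 to 57.7), both higher in members in each of the 4 hashtags. Against comparators with 0 markers, 4 of the 8 naive genes were past the fold upward and none downward (list median 0.60). No share over all genes stands beside this count. In the main comparison none of 7 genes of the SLAM family and its adaptors was past the fold, which leaves the rule gene Slamf6 aside. Of 6 genes of insulin action and glucose transport Slc2a3 alone was lower, at 18.3 CPM against 30.3 CPM, and of 7 interferon response genes Irf7, at 23.3 CPM against 35.9 CPM. None of 5 helper cytokine genes measured and none of 5 proliferation genes was past the fold; Il3, Il5, Il13 and Lif were at 0 in members. Gata3 was the 1 gene measured of the type 2 helper list and Gzma of the innate-like list. No ligand or receptor partner of the markers reached the level limit.

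Markers of other cell types were followed as whole lists. None of the 3 measured B cell genes, 3 macrophage genes, 4 endothelial genes or 1 stromal gene was past the fold, and no CD8 or gamma delta gene was measured. Over the hashtags the summed macrophage level was 38.9 to 152 CPM in members and 53.6 to 238 CPM in comparators, the endothelial 116 to 282 CPM and 159 to 296 CPM, and the stromal 19.4 to 52.5 CPM and 46.5 to 614 CPM. The B cell level was 318 to 573 CPM and 413 to 605 CPM, mostly of Ighm. The summed erythroid level was 110 to 236 CPM and 174 to 2452 CPM. Leaving out 5 clusters with low T cell genes, shallow cells or erythroid genes gave 64 genes higher and 140 lower, a choice made after seeing the data.

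The clusters were made without the 13 rule genes, from all 6845 T cells of hashtags 1 to 4, and gave 18 groups. Members gathered in 2 of them: cluster 1 held 149 and cluster 2 held 127, together 276 of 386 (71.5%, 66.7% to 76.0%). The same clusters held 545 of 1859 comparators (29.3%, 27.3% to 31.4%). By hashtag the members' share was 73.0%, 79.6%, 63.4% and 77.0%, against 32.7%, 24.3%, 27.8% and 30.03% of comparators. Every hashtag showed the same order. At a finer resolution the leading pair held 43.8% of members and 16.6% of comparators, at a coarser one 81.3% and 61.4%. Genes correlated with the markers remained in the clustering, so this shows that the markers go with other genes and is not a test of the rule.

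Cluster 1 was led by Gpm6b, Slamf6, Sidt1, Bcl2 and Nsg2 and cluster 2 by Iigp1, Gpm6b, Isg15, Slamf6 and Tbc1d4, so that rule genes headed both although they took no part in making them. Isg15 and Iigp1 are interferon-induced. Of the cells of cluster 1, 18.4% were members and 28.2% had at least 3 markers, and of cluster 2, 17.6% and 37.1%. Cluster 0, of shallow cells (median 1259.5 UMIs), held only 30 members (6.91% of its cells). Yet its Slamf6 was at 649 CPM against 465 and 422 CPM in clusters 1 and 2. Its Nt5e was at 69.8 CPM against 38.8 and 46.1 CPM, while Izumo1r, Tbc1d4 and Cd200 were lower than in cluster 2. The part of depth in the members' spread over clusters was not tested. Cluster 8, led by Spp1, Ccl1, Nrn1 and Pdcd1, had 32.9% of cells with at least 3 markers but only 15 members, and 81.3% of its cells held an Ikzf2 UMI. Cluster 6, led by Ly6c2 and Xcl1 and with Ifng and Tbx21 among its leading genes, held 27.1% of comparators and 4.92% of members. The naive-gene cluster held 20 members, and the 5 clusters in which at least 15% of cells held a Foxp3 UMI held 20 members (5.18%) and 108 comparators (5.81%).

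**Figure D3:**
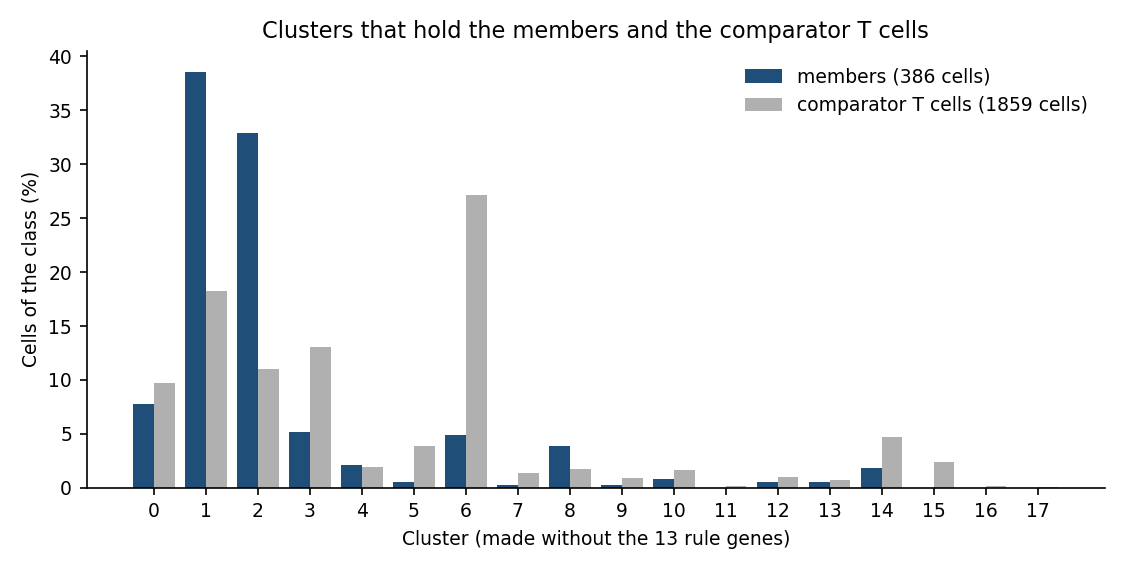
Percent of the 386 members (dark bars) and of the 1859 comparators (grey bars) in each of 18 clusters made without the rule genes. Clusters 1 and 2 hold 38.6% and 32.9% of members, and cluster 6 holds the most comparators, 27.1%.

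Within clusters 1 and 2, a comparison added after seeing the data, 276 members were set against 545 comparators. Of 5295 genes measured, 37 were higher (0.699%) and 63 lower (1.19%). Of 48 named genes, 9 kept their call there, 33 were no longer past the fold and 6 reversed. Of the list genes measured there, 3 of 8 type 1 and 1 of 10 T cell receptor response genes were lower and past the fold. Of 11 AP-1 and stress genes, 0 were. Pou2f2 stayed past the fold (274 CPM against 162 CPM, median log2 ratio 0.79), as did Tox (78.8 CPM against 37.8 CPM, 0.98), Plscr1 (41.2 CPM against 18.6 CPM) and Prkca (81.2 CPM against 49.5 CPM). Ccl5 (952 CPM against 2382 CPM, -1.30), Ly6c2 (57.6 CPM against 164 CPM) and Ccr2 (50.6 CPM against 85.3 CPM) stayed lower. Adk was no longer past it at 92.9 CPM against 66.7 CPM (0.51). Fos, at 128 CPM against 138 CPM, Egr1, at 44.7 CPM against 51.6 CPM, and Tbx21, at 38.8 CPM against 33.0 CPM, were near level in the 2 clusters.

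The level of several of these genes followed the number of markers detected, from 0 through 1, 2 and 3 to 4 or more. Pou2f2 was at 94.6, 97.4, 139, 240 and 277 CPM and Adk at 26.8, 49.7, 55.9, 94.0 and 91.6 CPM. Ccl5 was at 5078, 3794, 2169, 1342 and 816 CPM, and Ly6c2 at 360, 191, 144, 73.9 and 56.7 CPM. Ccl5 and Ly6c2 thus fell off already between cells with 0 and 2 markers, whereas the step of Pou2f2 lay mostly between 2 and 3 markers. Fos was at 470, 295, 162, 165 and 120 CPM and was level between cells with 2 and 3 markers, the cells just outside and just inside the rule. The median depth of cells with 0 markers was 2419 UMIs.

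**Figure D4:**
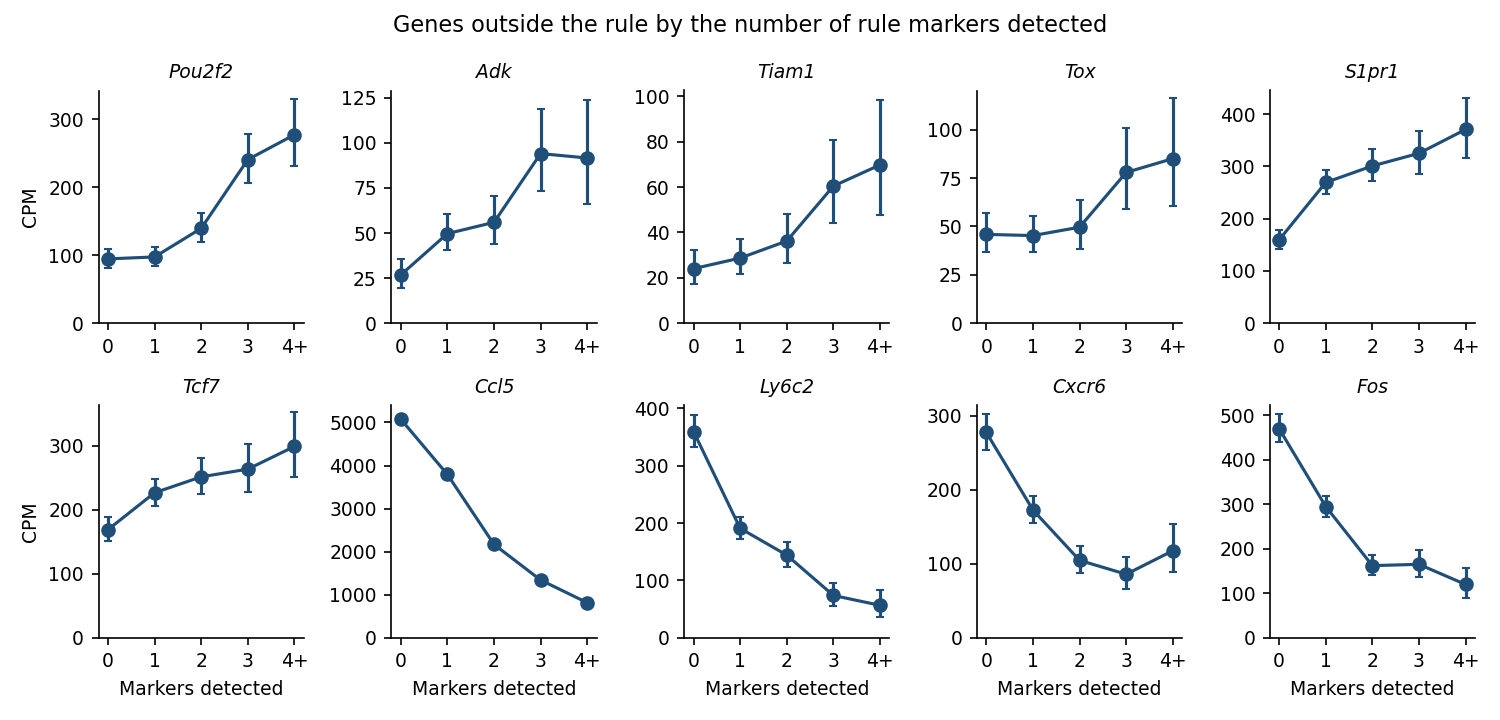
Level in CPM of 10 genes outside the rule, by the number of rule markers detected in T cells without the 5 excluded genes; bars are 95% Poisson intervals and each axis starts at 0. Pou2f2, Adk, Tiam1 and Tox are higher, and Ccl5, Ly6c2 and Fos lower, in cells with more markers. Cxcr6 falls from 278 CPM at 0 markers to 86.0 CPM at 3 and is at 118 CPM at 4 or more.

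Members were set beside the T cells of the same hashtags that hold a UMI of just 1 of Foxp3, Cxcr5 and Ifng. Unlike the members, these classes were not cleared of cells with an Il1rl1 or Ikzf2 UMI. Of the 99 cells with a Cxcr5 UMI, the receptor of follicular helper cells, 37.4% held at least 3 of the markers. The share was 13.4% of the 998 cells with an Ifng UMI and 8.82% of the 510 cells with a Foxp3 UMI. It was 14.1% of all T cells of these hashtags. The Foxp3 class had the lowest share although it was the deepest (median 3268 UMIs against 2905 and 2895.5). Tbc1d4, a rule gene whose level in members is set in part by the selection, was at 220 CPM there. Its interval in members (from 195 CPM) overlapped that of the Cxcr5 cells (192 CPM, from 149 CPM), which were not selected on it. The overlap therefore cannot show whether members and Cxcr5 cells are alike in Tbc1d4. Tox was higher in the Cxcr5 cells, at 164 CPM (125 to 211), than in members at 80.6 CPM (65.4 to 98.4), and Pdcd1 was at 72.5 CPM in the Foxp3 cells against 30.8 CPM in members.

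**Figure D5:**
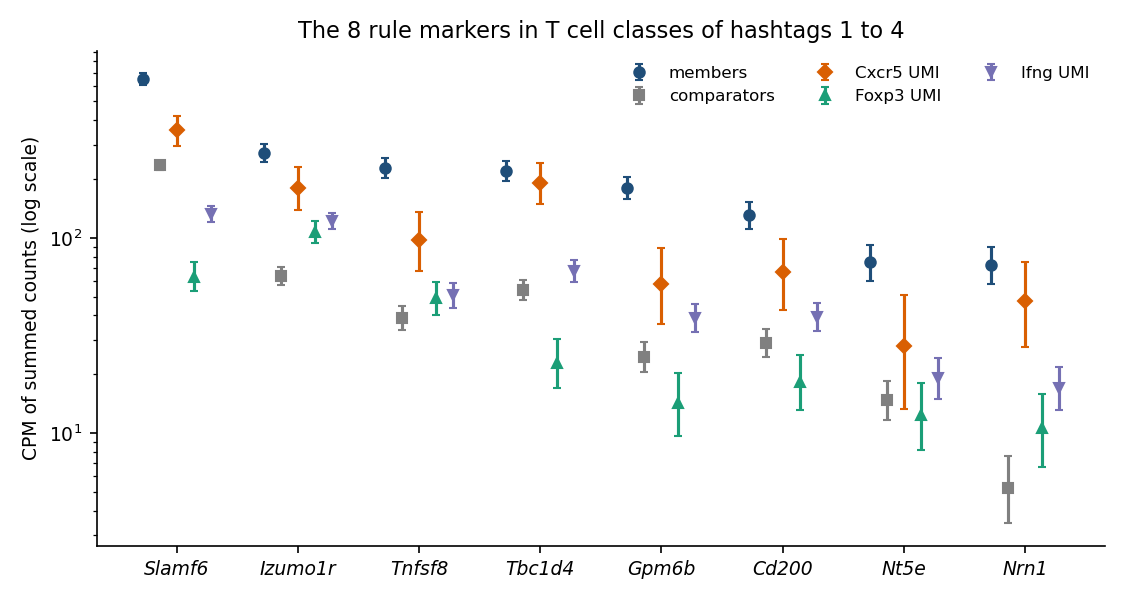
Level in CPM (log axis) of the 8 rule markers in members, comparators and T cells with a Cxcr5, Foxp3 or Ifng UMI of hashtags 1 to 4, with 95% Poisson intervals. Members are highest by the rule's construction, and among the 3 classes with a UMI of 1 gene the Cxcr5 cells have the highest value for each of the 8 markers, with overlapping intervals for Nt5e.

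Over 51 units, each the T cells of 1 cluster in 1 hashtag with at least 30 cells, the genes whose log2 CPM went most with that of the 8 markers summed were Utrn (Pearson r 0.81), Asap1 (0.78), Prkca (0.76), Mllt3 (0.76) and Ssh2 (0.75). Utrn encodes utrophin and Mllt3 a chromatin reader. Tcf7, the gene of the factor TCF-1 of long-lived T cells, was next at 0.74. The gene most opposed was Lgals3, the gene of galectin 3, at -0.77. The units share 1 library, and those of 1 hashtag share its source, so these values are descriptions. They include cluster 0, a cluster of shallow cells (median 1259.5 UMIs). Its summed marker levels were 1365, 1420, 1428 and 1111 CPM in hashtags 1 to 4. The part of shallow cells in these correlations was not tested.

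Arntl, the gene deleted in the Tregs of Treg-bmal1KO mice, was counted in cells of hashtags 1 to 6 that met the rule at 5, 3, 8, 4, 17 and 15 UMIs, or 10.7, 19.4, 20.5, 21.0, 11.7 and 10.9 CPM. The intervals overlapped in all 6, from 3.47 to 24.9 CPM in hashtag 1 and from 4.01 to 56.8 CPM in hashtag 2. The deletion is not aimed at Foxp3-negative cells, and 3′ tags outside the deleted part check nothing. Against comparators, Arntl in members was at 16.6 CPM against 21.0 CPM, with a mean under the level limit. None of the 5 measured genes of a list of 20 clock genes and outputs was past the fold (list median -0.36). Clock was at 22.4 CPM against 26.6 CPM, Per1 at 18.3 CPM against 26.6 CPM, and Bhlhe40, a repressor also induced by T cell activation, at 44.9 CPM against 66.0 CPM. Tef, a clock output gene below the limit, was lower in every hashtag, with 6 UMIs in members and 103 in comparators (4.99 CPM against 19.99 CPM, pooled counting interval -3.48 to -0.83). Nfil3, another clock output gene below the limit, was higher in every hashtag, with 22 UMIs against 52 (18.3 CPM against 10.1 CPM, pooled counting interval 0.07 to 1.60). With the level limit at 10 CPM, 1 gene of 12 measured in the clock list was higher and 1 lower, with no share over all genes to set beside this.

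The cells that met the rule in hashtags 5 and 6 (731) differed from the members in genes outside the rule. A gene is counted here where the pooled levels differed at least 2-fold and the 4 values did not overlap the 2; 105 of 5323 measured genes were higher in the members (1.97%) and 49 lower (0.921%). Which tissue, genotype or time this contrast holds is not known. Ly6c2 was highest by ratio, at 72.6, 32.4, 76.9 and 63.1 CPM in members and 11.7 and 6.53 CPM in hashtags 5 and 6. S100a4, a calcium-binding protein gene of effector memory cells, was at 811 CPM against 225 CPM, Tnfaip3, an inhibitor of NF-kappa B, at 131 CPM against 33.2 CPM, and Junb at 1322 CPM against 383 CPM.

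By lists, 6 of 7 type 1 genes measured were higher in the members than in the rule cells of hashtags 5 and 6 (median log2 ratio 1.47, with 0.07 over all genes), 7 of 12 homing genes (1.06), 5 of 9 T cell receptor response genes (1.004) and 5 of 11 AP-1 and stress genes (0.92). Itgb1 was at 778, 797, 600 and 720 CPM against 269 and 235 CPM, and Cxcr6 at 98.1 CPM against 35.3 CPM. Of 8 naive genes 3 were lower, among them Igfbp4 at 64.0 CPM against 233 CPM and Satb1 at 60.7 CPM against 184 CPM. These levels were thus nearer to those of the naive-gene cells in hashtags 5 and 6 than in the members. Izumo1r, a rule gene, was at 272 CPM against 540 CPM.

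All 4 erythroid genes and all 3 measured stromal genes were lower in the members, with Hbb-bs at 101 CPM against 1397 CPM and Col3a1 at 7.48 CPM against 118 CPM. Their part in the other differences between hashtags was not tested. Adk was at 93.1 CPM against 54.7 CPM, and Tox at 80.6 CPM against 90.7 CPM, and neither passed this rule.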

How the data were processed

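Gene expression was measured by single-cell 3′ RNA-seq (10x Genomics v3.1) in 1 pooled library with a second library of hashtags. The values deposited by the authors are raw UMI counts per gene (55487 genes) and barcode, and raw counts per hashtag and barcode. Per the submitters' processing notes Cell Ranger 6.0, Seurat 3 and mm10 were used, while the file header of the matrix names cellranger 4.0.0. Of the expression barcodes, 22952 were in the hashtag library and 8 were not. T cells of hashtags 1 to 4 numbered 6845. The members, gene lists and markers were chosen with earlier results of these data known.

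From these counts, UMIs were summed per class and hashtag and turned into CPM. Log2 ratios used a prior count of 0.5 scaled to the class totals, and the text gives their median and range over 4 hashtags and the exact conditional interval of the pooled ratio. Intervals cover counting error only, at 95%. No test was run, since hashtags are not replicates. Genes named are the 15 highest and 10 lowest past the fold with at least 30 UMIs, leaving out T cell receptor, immunoglobulin, mitochondrial, ribosomal and unnamed genes, up to 4 per list and a fixed set; other list members and genes of the contrast with hashtags 5 and 6 are examples chosen after their values were seen. Clusters used scanpy 1.11.5 (Python 3.11.15, numpy 2.4.6, igraph 0.11.9) with 2000 variable genes without the 13 rule genes, 30 components, 15 neighbours and Leiden resolution 1. Genes whose groups overlap on the genome can share reads. The ratio script was checked on simulated data. Doublets of 1 hashtag were not removed. Some genes of the lists are counted but not reported here by name.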

Additional observations from a re-analysis of the deposited data

Results flagged for a closer look

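The hashtag library also lists hashtags 7 to 10, which were used to assign no cell. They held 278, 10, 172 and 7 counts over all barcodes, against 560096 to 1053628 counts for hashtags 1 to 6. The signal was listed because it is above the 3 counts that a count of 0 allows. There are no control samples to compare it with, and no member depends on it.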

How the results depend on the processing

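Of 48 named genes, 5 (Pou2f2, Prkca, Ccl5, Ly6c2 and Ccr2) were past the fold in all 18 alternatives, and 8 reversed in at least 1. The least firm were Irf7 and Hbb-bt, past the fold in 8 alternatives. Slc2a3, Slpi and Plin2 were in 9, Prelid2 in 10, and Ctla4 and Hba-a2 in 11. With at least 4 markers the higher genes numbered 87, the type 1 list's median was -2.05 and Slc2a3 was at 0.015. With comparators of 0 markers 101 genes were higher and 265 lower, and that median was -1.49. With at least 2 markers Slpi was at 0.30 and Hbb-bt at 0.12. A level limit of 10, 50 or none gave 87, 20 and 115 genes higher and 260, 62 and 413 lower. Apart from the comparison within clusters 1 and 2, shares over all genes measured were not calculated for the alternatives. Leaving out 1 hashtag gave 67 to 79 higher and 137 to 211 lower, with a type 1 median of -1.42 to -0.83 and an adipose Treg median of -1.20 to -0.99; 79 and 76 were higher without hashtags 1 and 2. Within the 2 clusters with most members, chosen after seeing the data, 63 genes were lower, Prelid2 was at -0.12, Gzma at 0.88, Plin2 at 0.24, Areg at 0.070, Hbb-bs at 0.14 and Hbb-bt at 0.20. Without clusters of low T cell genes, shallow cells or erythroid genes, also added, Hbb-bs was at 0.10. The cause of these shifts was not tested, apart from fewer genes or cells measured and the single comparator cells named for Slpi and the hemoglobin genes.

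The share of T cells in hashtags 1 to 4 and in hashtags 5 and 6 was 11.8% and 25.0% with at least 2 markers, 1.97% and 3.94% with at least 4, 14.1% and 25.5% with no excluded genes, and 4.03% and 6.75% after thinning. The leading 2 clusters held 81.3% of members at resolution 0.5 and 43.8% at resolution 2. Comparators matched on UMI total gave 68 genes higher and 137 lower. The ratios were taken within each hashtag throughout; a fit with a replicate block was not run, since the labels give no replicate numbers and no test was made. Depth limits genes under about 20 CPM, where members hold few UMIs.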
